A study of Mus musculus with 3 samples.

Results

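The regions described here are the 843 H3K27me3 peaks of untreated mouse kidney that lay within 2 kb of an end of a protein-coding gene and had no counterpart in ADA-treated kidney. They were chosen from the untreated peak list on chromosomes 1 to 19 by having no overlap, not even of 1 bp, with any ADA-treated peak, and by their distance to the ends of genes in the RefSeq table for GRCm38.p6. They made up 10.5% of the 8061 untreated peaks on these chromosomes. The 2 lists held 25686 peaks in all. The absence of an ADA-treated call and the position near a gene were therefore fixed by the choice and are no findings.

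The data came from ChIP-seq for H3K27me3 on C57BL/6 kidney, with 1 library from ADA-treated animals, 1 library from untreated animals and an input. ADA stands as in the labels, which state neither dose nor duration. A line with SAHH deleted in podocytes appears in the series title and was not analysed here. With 1 library a group there was no replicate check and no test between groups. Ranges in brackets after a percentage are 95% intervals by the exact Clopper-Pearson method and cover counting error alone. Kidney tissue mixes many cell types, so fewer cells with the mark and less mark per cell cannot be told apart, and a peak beside a marker gene of 1 cell type does not show which cells carried it.

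H3K27me3, histone H3 carrying 3 methyl groups on a lysine of its tail, is placed by the Polycomb complex PRC2 and is known for lying over repressed genes, most of all over CpG-rich starts of developmental regulators. The methyl groups come from S-adenosylmethionine, whose product S-adenosylhomocysteine is cleared by the enzyme SAHH. In differentiated tissue the mark keeps genes of other lineages silent, and outside such domains it is usually low and broad.

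A member could cover a gene start, and the letters of such starts are shown first. Of the 991 genes near a member, 771 had an entry and a strand in the RefSeq promoter table (GRCm38.p6), and a member covered the annotated start of 149. The 6 promoters below come from the first 10 such members by the peak caller's p and run from CpG-rich to CpG-poor. They are a selection and not the strongest 6. The Atox1 start, with a ratio of observed to expected CpG of 0.658, ranked above the Zfp422 start and is not printed. Each spans 300 bases, 250 before and 50 after the start in the promoter table, 5′ to 3′ along the gene, in lower case with every CG dinucleotide in capitals. Covering was judged by the start in the gene table, which can differ. It was 167421599 for Slc9a8, against 167421710 in the promoter table, and 116628999 for Zfp422, against 116628701. The Zfp422 letters thus lie wholly downstream of its gene-table start. The member covered both starts at each of these genes. The Slc9a8 promoter (chr2:167421460-167421759, plus strand) held 22 CG and the Ppil1 promoter (chr17:29263922-29264221, minus strand) 23. The Zfp422 promoter (chr6:116628652-116628951, minus strand) held 32 CG at 71% GC, and the Afg3l1 promoter (chr8:123477612-123477911, plus strand) held 34, with a ratio of observed to expected CpG of 1.09. The Chrnb2 promoter (chr3:89764583-89764882, minus strand) held 12 CG and the Arsj promoter (chr3:126363602-126363901, plus strand) 14, with ratios of 0.513 and 0.519.
Slc9a8: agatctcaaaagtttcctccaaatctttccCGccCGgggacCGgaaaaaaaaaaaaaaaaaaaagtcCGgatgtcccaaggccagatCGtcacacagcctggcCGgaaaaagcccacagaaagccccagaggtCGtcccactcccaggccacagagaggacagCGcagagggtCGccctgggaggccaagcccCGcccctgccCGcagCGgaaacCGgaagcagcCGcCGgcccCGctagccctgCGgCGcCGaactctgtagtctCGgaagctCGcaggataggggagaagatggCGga
Ppil1: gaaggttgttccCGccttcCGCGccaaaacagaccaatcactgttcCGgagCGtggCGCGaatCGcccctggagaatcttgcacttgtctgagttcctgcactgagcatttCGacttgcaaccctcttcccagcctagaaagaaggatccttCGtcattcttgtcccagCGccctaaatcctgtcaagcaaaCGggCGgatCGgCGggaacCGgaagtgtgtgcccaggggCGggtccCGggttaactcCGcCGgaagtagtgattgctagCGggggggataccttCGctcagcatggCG
Zfp422: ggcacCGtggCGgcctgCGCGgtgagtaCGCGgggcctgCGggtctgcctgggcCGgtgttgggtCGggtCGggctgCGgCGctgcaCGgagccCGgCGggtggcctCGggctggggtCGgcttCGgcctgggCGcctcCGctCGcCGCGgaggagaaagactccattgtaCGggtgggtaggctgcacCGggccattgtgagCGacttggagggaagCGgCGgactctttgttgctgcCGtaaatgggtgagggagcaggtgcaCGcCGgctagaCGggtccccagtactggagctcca
Afg3l1: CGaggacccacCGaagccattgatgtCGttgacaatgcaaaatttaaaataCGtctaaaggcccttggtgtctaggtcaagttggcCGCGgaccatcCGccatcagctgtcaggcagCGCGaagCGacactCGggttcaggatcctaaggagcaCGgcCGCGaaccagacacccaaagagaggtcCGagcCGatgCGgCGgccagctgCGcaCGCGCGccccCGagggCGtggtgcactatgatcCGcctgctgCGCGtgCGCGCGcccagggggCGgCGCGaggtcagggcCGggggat
Chrnb2: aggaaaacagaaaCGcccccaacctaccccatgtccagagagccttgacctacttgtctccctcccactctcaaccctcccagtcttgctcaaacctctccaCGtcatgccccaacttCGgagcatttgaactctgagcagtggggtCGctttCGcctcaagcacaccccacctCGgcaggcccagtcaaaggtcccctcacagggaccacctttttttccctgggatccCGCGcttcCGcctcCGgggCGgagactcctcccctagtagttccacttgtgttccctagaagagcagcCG
Arsj: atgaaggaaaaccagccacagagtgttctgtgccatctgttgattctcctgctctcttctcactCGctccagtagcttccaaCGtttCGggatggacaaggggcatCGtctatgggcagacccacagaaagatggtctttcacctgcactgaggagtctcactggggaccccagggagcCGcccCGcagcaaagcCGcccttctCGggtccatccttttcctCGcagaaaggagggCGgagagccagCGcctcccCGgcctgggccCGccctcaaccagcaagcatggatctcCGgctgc

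Slc9a8 is a sodium-proton exchanger, Ppil1 a peptidyl-prolyl isomerase of the spliceosome, Zfp422 a zinc finger protein, Afg3l1 a mitochondrial protease, Chrnb2 a nicotinic acetylcholine receptor subunit and Arsj an arylsulfatase. The untreated pileup, the number of sequenced fragments stacked over a position averaged across the peak, was 13.29 over the Slc9a8 start, 12.96 over Ppil1 and 12.45 over Zfp422. It was 12.33 over Afg3l1, 12.39 over Chrnb2 and 12.20 over Arsj. No ADA-treated peak touched any of these peaks, and the nearest lay 3433 bp from the Slc9a8 peak and 232618 bp from the Arsj peak.

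Starts under members were poorer in CpG than starts under shared peaks. The median ratio of observed to expected CpG was 0.748 at the 149 starts under members, 0.867 at 1657 starts under untreated peaks shared with the ADA-treated library, and 0.597 over all 16456 promoters of the table. The median number of CG in 300 bases was 19 under members, 29 under shared peaks and 14 over all promoters, and the median GC content was 58.7%, 67.7% and 56.7% in the same order. Starts with a ratio under 0.6 made up 30.9% of those under members (46 of 149), 10.7% of those under shared peaks (177 of 1657) and 50.2% of all. The 2947 starts under ADA-treated peaks with no untreated partner had a median ratio of 0.802, with 18.9% under 0.6. The starts under members therefore stood below both other marked groups in CpG and above the average promoter. Starts under ADA-treated peaks were CpG-rich, so leaving out every untreated peak that one overlaps takes away CpG-rich starts. The contrast with shared peaks is thus in part set by the choice of members. Members were also weaker than shared peaks, and the part of peak strength was not tested. At the 356 genes with a member within 2 kb of the 3′ end and over 2 kb from the start, the median ratio at the start was 0.7, with 40.2% under 0.6. Some of these genes had another member near the start.

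**Figure D1:**
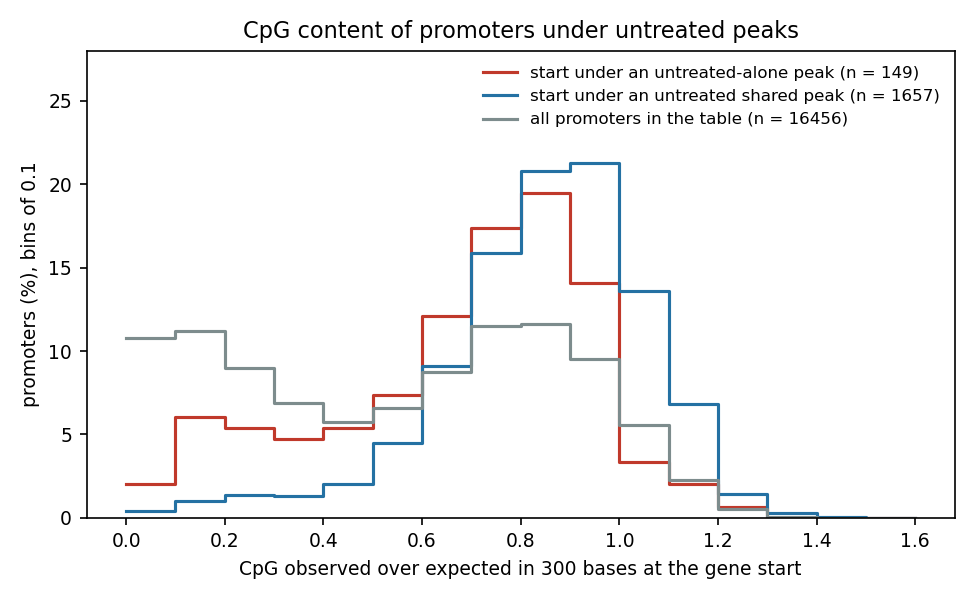
Share of promoters (y axis, %) by the ratio of observed to expected CpG (x axis, bins of 0.1) in 300 bases at the gene start, for 149 starts under untreated-alone peaks, 1657 starts under untreated peaks shared with the ADA-treated library and all 16456 promoters. The untreated-alone curve lies left of the shared curve, and 30.9% of it against 10.7% of the shared curve falls under 0.6.

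Short motifs were searched by their letters on both strands of the same 300 bases. The GC box GGGCGG, which Sp and Klf factors bind, was found at 65.8% (57.6 to 73.3) of starts under members, 82.7% (80.8 to 84.5) under shared peaks and 47.3% of all promoters. The TATA box TATAAA was found at 8.05% (4.23 to 13.6) under members, 4.04% under shared peaks and 13.5% of all. The cAMP response element TGACGTCA was found at 10 of 149 starts under members, 6.71% (3.27 to 12), at 2.84% (2.09 to 3.75) under shared peaks and at 2.4% of all. Under ADA-treated peaks with no untreated partner it was found at 3.53% (2.89 to 4.26), an interval that overlaps that of members. The ETS motif CCGGAAG was found at 20.1% under members and 16.5% under shared peaks, and at 12.3% of all. It was as frequent under ADA-treated peaks with no untreated partner, at 20.4%. The CCAAT box CCAAT was found at 35.6%, 38.3% and 39.1%, and the E-box CACGTG at 6.71%, 11.7% and 7.97%, in the order members, shared and all. Of the promoters printed above, Slc9a8 held 2 matches to GGGCGG and 1 to CCGGAAG, Ppil1 held 2 of each and 1 CCAAT, and Arsj held 4 GGGCGG. Chrnb2 and Afg3l1 held 1 GGGCGG each, and Zfp422 held a match to none of the 9 motifs. A match describes these letters and is not a site, and the intervals make no allowance for the number of motifs. GC content differed between these groups of starts, and its part in the motif shares was not tested.

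The members were weak peaks in a list of weak peaks. Their pileup ran from 10, the smallest value listed in both libraries, to 14.85, with a median of 10.54 and quartiles of 10.2 and 11.12. The fold over the constant background of 3.24 fragments, as the authors' peak caller gave it, ran from 2.59 to 3.74, with a median of 2.72. A pileup of 10 exactly was listed for 109 members, and 599 of 843 (71.1%) lay under 11. At a pileup of 12 or more there were 60 members, 7.12% (5.47 to 9.07), against 769 of 3607 shared untreated peaks near gene ends (21.3%). The untreated-alone peaks far from gene ends were weak too, with 130 of 2458 (5.29%) at 12 or more. The ADA-treated peaks near gene ends with no untreated partner reached 12 in 3053 of 6151 cases (49.6%). The caller's q, its estimate of the false discovery rate within the list, was at most 5% for 22 members (2.61%).

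**Figure D2:**
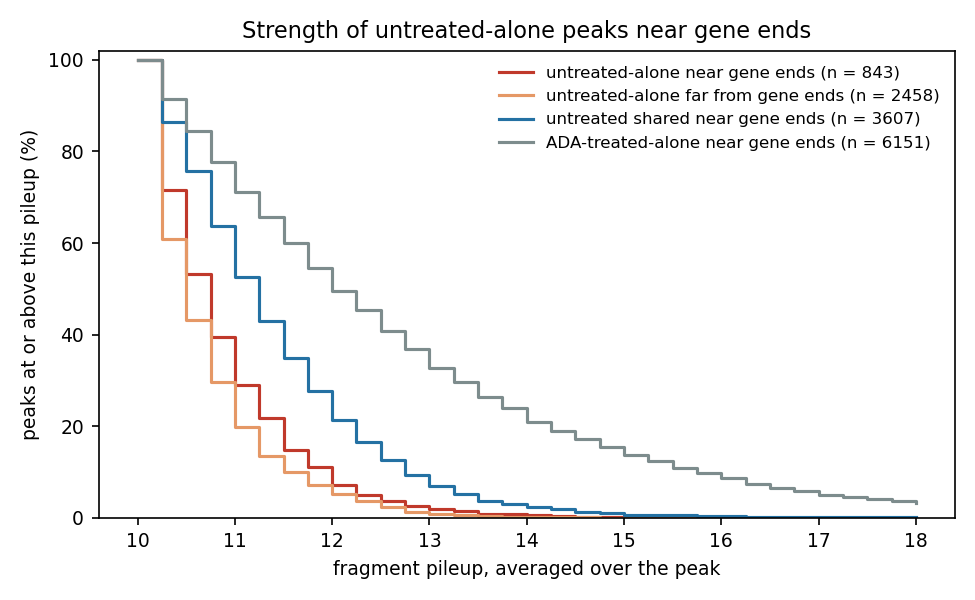
Share of peaks (y axis, %) at or above each fragment pileup (x axis), for the 843 untreated-alone peaks near gene ends, 2458 untreated-alone peaks far from them, 3607 untreated shared peaks near gene ends and 6151 ADA-treated-alone peaks near gene ends. At a pileup of 12 the first curve stands at 7.12% and the shared curve at 21.3%.

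The libraries also differed in yield. The ADA-treated library had 20602041 ChIP fragments and 17612 peaks, and the untreated library had 18849785 ChIP fragments and 8074 peaks. Near gene ends, 6151 of 9809 ADA-treated peaks (62.7%) had no untreated partner, and 843 of 4450 untreated peaks (18.9%) had no ADA-treated partner. A place without an ADA-treated call is below that list's threshold and is not shown to lack the mark. The part of list length, depth and threshold in the choice of members was not tested.

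The member with the smallest caller p lay just inside Terf2, which encodes a telomere-binding protein of shelterin. This peak (chr8:107096030-107096470) lay 78 bp from the gene start and had an untreated pileup of 14.85 and a fold of 3.74, with no ADA-treated peak within 11119 bp. Grm5, a metabotropic glutamate receptor, followed with an untreated pileup of 14.54 at chr7:87584235-87584568, 254 bp inside 1 end of the gene. The nearest ADA-treated peak was 337421 bp away, and none lay near either end of the gene. Gnal, the olfactory G protein alpha subunit, had 14.25 with the nearest ADA-treated peak 88475 bp away. Adcy1, an adenylyl cyclase of neurons, had 13.33 at a point 362 bp inside its start, and the nearest ADA-treated peak was 105536 bp away. Among the first members whose nearest ADA-treated peak lay over 50 kb away were also the peak just inside the Cpsf2 start, with the Ndufb1 start also in reach (13.01), and the peak beside the Drosha start (12.96). Cpsf2 is a subunit of the mRNA cleavage machinery, Ndufb1 a subunit of respiratory complex I and Drosha the nuclease that cuts primary microRNA transcripts.

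Other strong members had an ADA-treated peak at the same gene or close by. At Aqp2, the vasopressin-regulated water channel of the collecting duct, the ADA-treated list held a peak of 10.36 near the gene and the member had 14.36 in untreated kidney (chr15:99583727-99584205, 340 bp inside the 3′ end). At Artn, a ligand of the GDNF family, the ADA-treated peak had 13.50 and the member 14.21, and 237 bp separated them. At Rac2, a small GTPase of blood cells, the ADA-treated peak had 11.13 and the member 13.11, 356 bp apart. These pairs of pileups come from different places and libraries and are not a measure of change. The peak shared by Cep76 and Psmg2 had 13.38, Cyp2s1 had 13.46 and the peak shared by Chka and Tcirg1 had 13.46. The remaining named peaks of the first 20 ran from 13.29 at Slc9a8 to 12.91 at Atox1, with Slc46a3 and Pomp, Gorasp2, Ankrd65 and Ppil1 between them.

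Of the first 20 peaks, 13 had no ADA-treated peak within 5 kb and 3 had one within 1 kb. They were short, from 322 to 2344 bp with a median of 398.5 bp. Among the 843 members, 41 (4.86%) had both a pileup of 12 or more and no ADA-treated peak within 5 kb.

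**Figure D3:**
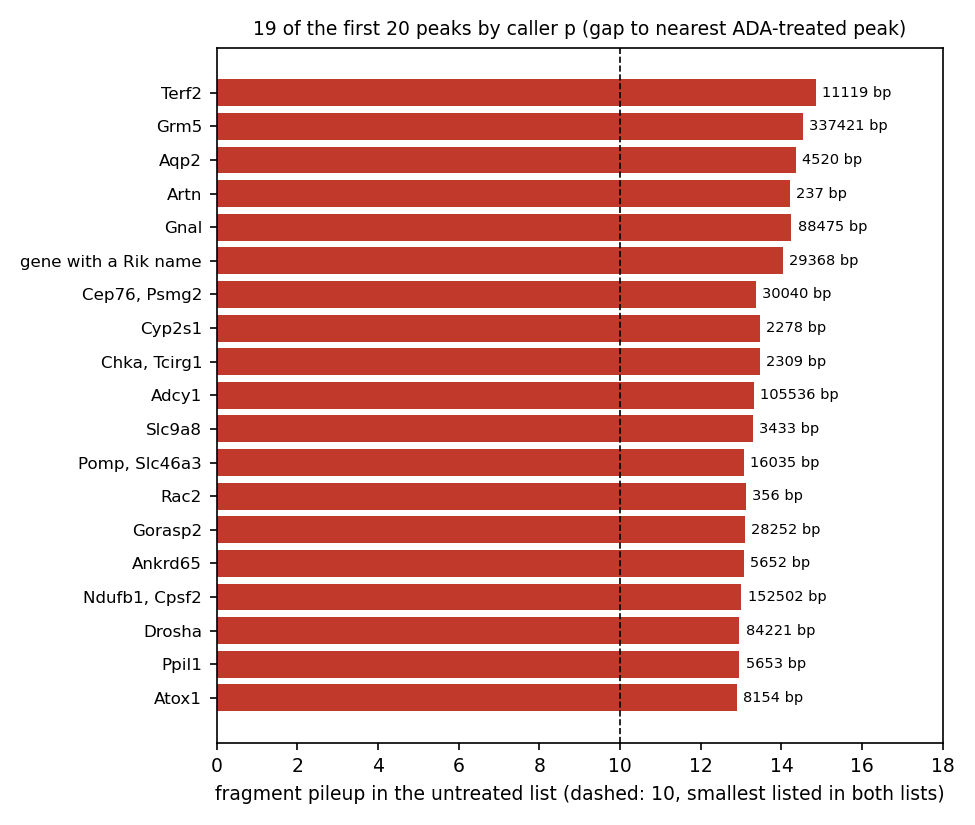
Untreated fragment pileup (x axis) of 19 of the 20 untreated-alone peaks near gene ends with the smallest caller p, by the genes within 2 kb (y axis), with the gap to the nearest ADA-treated peak printed in bp beside each bar. The bars run from 14.85 at Terf2 to 12.91 at Atox1, and the gaps from 237 bp at Artn to 337421 bp at Grm5.

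An ADA-treated peak often lay next to a member. It was within 1 kb of 151 members (17.9%, 15.4 to 20.7) and within 100 bp of 40, and the median gap was 7323 bp. Untreated-alone peaks far from gene ends had an ADA-treated peak within 1 kb in 8.83% of cases (7.74 to 10), with a median gap of 11701 bp. The ADA-treated neighbours of the 151 had a median pileup of 11.4 (quartiles 10.7 and 12.8) and the 151 members a median of 10.5. At these places the mark was called in both libraries side by side, and the rule of 1 bp decided the class. Over 50 kb separated 131 members (15.5%) from any ADA-treated peak. Within each list no neighbouring peaks lay closer than 1177 bp in the ADA-treated and 1288 bp in the untreated library.

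Peaks close to the limits of the rule had pileups from 10 to 12.74. Just inside the 2 kb limit were the peaks beside Slc37a4 at 1998 bp (pileup 10.47), Lag3 at 1997 bp (10.54) and Fubp3 at 1996 bp (10.22). Just outside were those beside Pak6 at 2006 bp (12.74), Sh2b3 at 2008 bp (10.76) and Prickle4 at 2018 bp (10.42). Members at Nrtn (11.47), Fzd9 (10.74) and Rps6ka1 (10.68) were separated from an ADA-treated peak by 1, 3 and 5 bp. Peaks at Bmp2, Zc3h12c and Cnnm4, each at 10, overlapped one by 2, 3 and 7 bp and were left out.

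The place of the members along genes differed from that of shared peaks. Strand was known for every near gene of 637 members. Of these, 316 (49.6%, 45.7 to 53.6) lay near a start alone, 237 (37.2%, 33.4 to 41.1) near a 3′ end alone and 84 (13.2%) near both. Of 2800 shared untreated peaks near gene ends, 181 (6.46%, 5.58 to 7.44) lay near a 3′ end alone and 81.5% near a start alone. ADA-treated peaks with no untreated partner stood between them, with 787 of 4744 (16.6%, 15.5 to 17.7) near a 3′ end alone. ADA-treated peaks lie mostly at starts, so removing every untreated peak that one overlaps takes away starts more than 3′ ends, and the contrast with shared peaks is in part set by the choice of members. These shares are therefore a description.

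The place also varied with peak strength. Among peaks with a pileup under 10.5, 41% (35.5 to 46.8) of members, 39.3% (35.8 to 42.9) of ADA-treated-alone peaks and 10.6% (8.36 to 13.2) of shared untreated peaks lay near a 3′ end alone. At 12 or more, the share was 31.1% (14 of 45, 18.2 to 46.6) of members, 5.62% (4.73 to 6.62) of ADA-treated-alone peaks and 2.82% (1.65 to 4.48) of shared untreated peaks. From the lowest to the highest of the 4 bands, the share among members was 41%, 37.2%, 30.7% and 31.1%. Among ADA-treated-alone peaks it was 39.3%, 27%, 19.7% and 5.62%. Both groups thus had a lower share in the highest band than in the lowest, and the highest band held only 45 members.

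**Figure D4:**
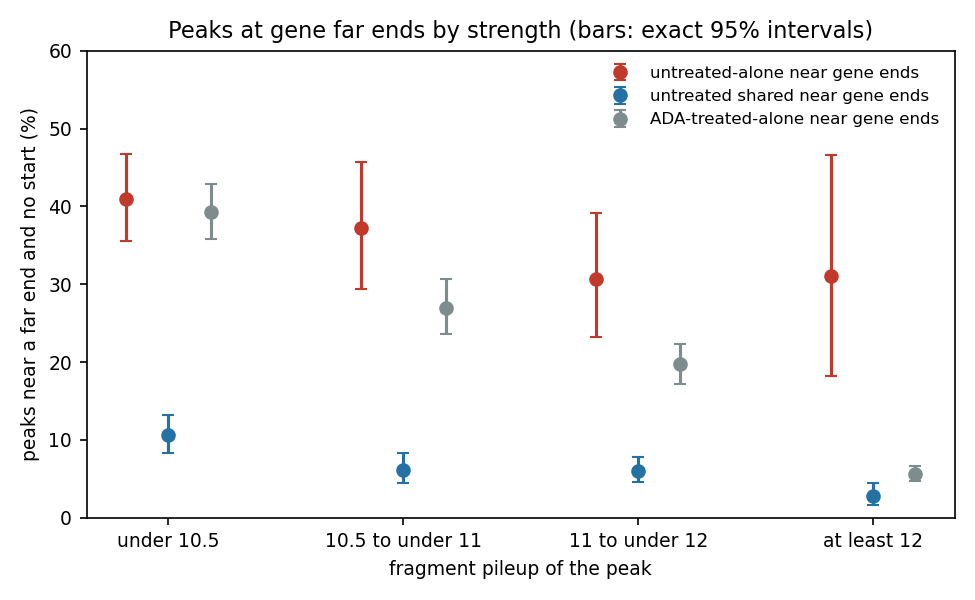
Share of peaks near a 3′ end and no start (y axis, %, exact 95% intervals) by fragment pileup (x axis), for untreated-alone, untreated shared and ADA-treated-alone peaks near gene ends. From the lowest of the 4 bands to a pileup of 12 or more, untreated-alone peaks go from 41% to 31.1% (14 of 45). ADA-treated-alone peaks go from 39.3% to 5.62%.

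Few members sat on the start itself. A start was covered by 138 of 637 members (21.7%, 18.5 to 25.1) and by 52.6% (50.7 to 54.5) of shared untreated peaks. Of the ADA-treated peaks near gene ends that untreated peaks overlapped, 72.2% covered a start, so this contrast too is in part set by the choice of members. A 3′ end was covered by 6.91% of members and 2.89% of shared peaks. Of the 316 members near a start alone, 152 (48.1%) lay inside the gene at a median of 474 bp from the start, and 48 (15.2%) lay upstream. The same shares of shared peaks were 39.3% and 3.68%. Of the 237 members near a 3′ end alone, 128 (54%) lay inside the gene and 79 (33.3%) beyond it, against 68.5% and 13.3% of 181 shared peaks. Over all 843 members, 474 (56.2%) lay wholly inside a gene and 133 (15.8%) outside any gene, whereas 3.19% of shared untreated peaks near gene ends lay outside. A long noncoding RNA gene was overlapped by 74 members (8.78%) and by 12.1% of shared peaks. A microRNA gene was overlapped by 6 members (0.712%) and by a similar 0.638% of shared peaks. Those at members were Mir1903, Mir1982, Mir6971, Mir7040, Mir7075 and Mir7085.

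**Figure D5:**
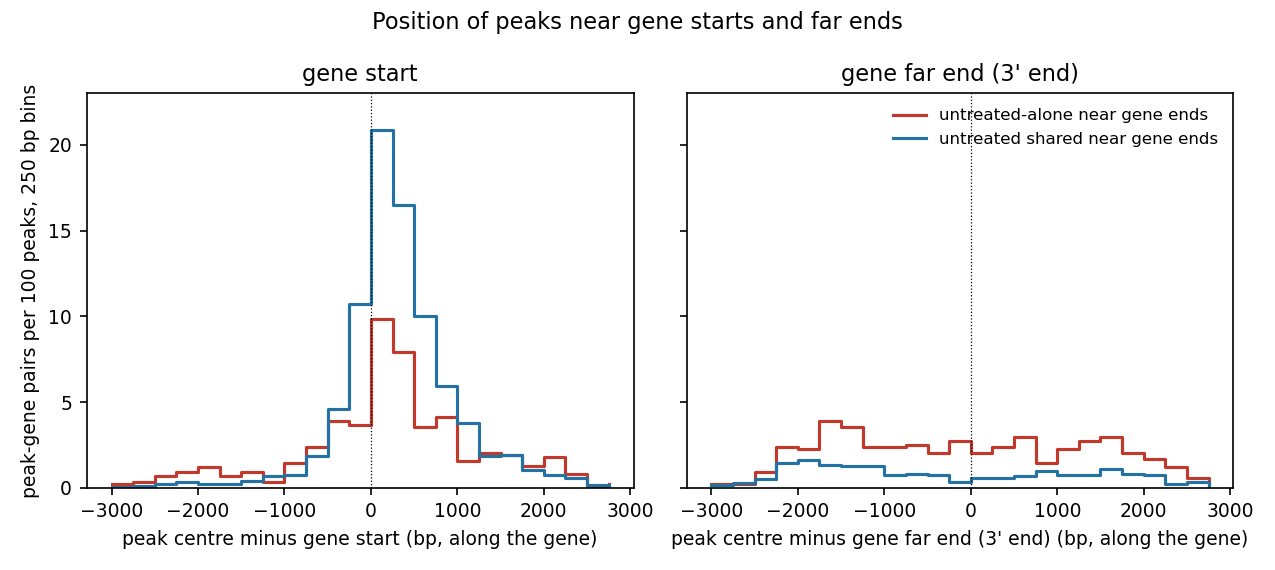
Peak-gene pairs per 100 peaks (y axis) by the distance of the peak centre from the gene start (left) or 3′ end (right) along the gene (x axis, bins of 250 bp), for untreated-alone and untreated shared peaks near gene ends. Both curves are highest just inside the start, at 9.85 for untreated-alone peaks, which have no such summit at the 3′ end.

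Members were short. Their length ran from 321 bp, the mean fragment length of the library, to 6452 bp, with a median of 607 bp against 760 bp for shared untreated peaks near gene ends. The longest (chr17:13226959-13233410) covered Smok2a and Smok2b, near-identical sperm motility kinase genes, and its reads cannot be placed with certainty between the copies. The next longest lay over the Gatd3a 3′ end (3662 bp), near Rd3 (3268 bp), over the Mfsd12 start (2913 bp) and over the start shared by Arhgap1 and Zfp408 (2612 bp). The genes near members had a median length of 14926 bp, against 23406 bp for genes near shared untreated peaks and 17491 bp for all genes.

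The 843 members lay near 991 genes, 4.8% of the 20661 protein-coding genes on chromosomes 1 to 19. Of the 991, 527 (53.2%, 50 to 56.3) also had an ADA-treated peak elsewhere within 2 kb of an end, where 49% of all genes had one. The remaining 464 (46.8%) had none. Of all 991, 168 (17%, 14.7 to 19.4) had a shared untreated peak near an end, against 20.1% of all genes. At 356 genes a member lay near the 3′ end and over 2 kb from the start, and some of them, such as Slc9a8, had another member at the start. Of the 356, 230 (64.6%, 59.4 to 69.6) had an ADA-treated peak within 2 kb of the start, against 45.6% of all genes with a strand. A shared untreated peak lay within 2 kb of the start of 100 of the 356 (28.1%, 23.5 to 33.1), against 18.3% of all. At these 230 genes the ADA-treated call lay at the start and the member was a separate peak at the other end.

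More than 1 member lay near the ends of 34 genes. Ush1c, a scaffold protein of hair cells and intestine, had 3, with pileups of 11.33, 10.21 and 10.11. Slc9a8 had 13.29 at the start and 10.29 at the 3′ end, and Pde4c, a cAMP phosphodiesterase, had 10.78 and 10.36. Psmc4, a proteasome ATPase, had 11.34 over the start and 10.85 inside the gene, more than 100 kb from any ADA-treated peak. Psap, the precursor of the saposins, had 10.88 over the start and 10.30 over the 3′ end. The pairs at Mup5, H2-Q7 and Smok2b lie in families of near-identical copies and are uncertain.

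Among 119 developmental regulators, the classical PRC2 targets, 16 (13.4%, 7.88 to 20.9) had a member, and their median pileup was 10.76 against 10.54 over all 991 genes. This list was rich in every kind of peak, since 78.2% of it had an ADA-treated peak and 59.7% any untreated peak, where 24.1% of all genes had an untreated one. Of the 16, 7 had no ADA-treated peak near an end, where 46.8% of all 991 genes with a member had none. The strongest was at Pax5, the B cell commitment factor, with a 2234 bp member of 12.16 located 155 bp upstream of the start and 1233 bp from an ADA-treated peak that was itself over 2 kb from both gene ends. Wnt1, a ligand of neural development, had 11.71 over its start and 10 inside the gene, and no ADA-treated peak. At Nkx2-1, the thyroid and lung factor, the ADA-treated list held 12.44 and the member had 10.88. At Hand1, the heart and placenta factor, the ADA-treated list held 12.65 and the member had 10.85. Alx1, a craniofacial factor, had 10.71 and was 2539595 bp from the nearest ADA-treated peak, and Atoh1, a neuronal factor, had 10.39 and was 651579 bp from it. Of the 39 Hox genes, which set position along the body axis, 5 (12.8%) had a member of 11.12 at most, and Hoxa2 alone of these had no ADA-treated peak near an end.

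Of the kidney cell type lists, that of the distal nephron and collecting duct had a member at 5 of 27 genes (18.5%, 6.3 to 38.1). Their median pileup was 12.03. All 5 also had an ADA-treated peak near an end, where 53.2% of all 991 genes with a member had one. At Slc4a1, the anion exchanger of intercalated and red cells, the ADA-treated list held 10.24 and the member had 12.03. At Scnn1a, an epithelial sodium channel subunit, the ADA-treated list held 14.72 and the member had 10. At Hsd11b2, which protects the mineralocorticoid receptor from glucocorticoids, the ADA-treated list held 15.73 and the member had 10. Of 29 proximal tubule genes, 3 (10.3%) had a member. The transporter Slc22a8 had 11.26 and the factor Hnf4a had 10.24, both beyond the 3′ end with no ADA-treated peak. At the urate transporter Slc22a12 the ADA-treated list held 10.68 and the member had 10.67. Podocyte genes had 1 of 20 (Inf2, an actin regulator, 10.81), endothelial and mesangial genes 1 of 20 (Nos3, the endothelial nitric oxide synthase, 10.43) and immune genes 2 of 23 (Pax5 and the B cell receptor chain Cd79b, 10).

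Of 61 genes of cAMP and G protein signalling, 6 (9.84%, 3.7 to 20.2) had a member, and 4 of these had no ADA-treated peak, namely Gnal, Adcy1, Pde4c and Gnas. Of the whole list, 68.9% had one. A member excludes an ADA-treated peak at its own place, so this share is not a like comparison. Over all 991 genes with a member, 46.8% had no ADA-treated peak near an end, and 6 genes are few. Gnas, the stimulatory alpha subunit, had 10. Of 68 receptors for glutamate, GABA, acetylcholine and monoamines, 6 (8.82%, 3.31 to 18.2) had a member. Grm5 and Grm8, another metabotropic glutamate receptor (11.94, over its start), had no ADA-treated peak near an end. At Htr1b, a serotonin receptor, the ADA-treated list held 10.49 and the member had 10.19. Terf2 was joined by Tert, the catalytic subunit of telomerase (10.84, 262 bp inside the start), and Stn1, a subunit of the CST complex at telomeres (10.69), which made 3 of 16 shelterin and telomerase genes (18.8%, 4.05 to 45.6), none with an ADA-treated peak. This list was set up with the Terf2 peak known. It holds few genes, and 50% of all 16 had an ADA-treated peak near an end.

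The methionine cycle, which supplies and clears the methyl donor, had a member at 3 of 27 genes (11.1%, 2.35 to 29.2). Cbs, the enzyme that takes homocysteine towards cysteine, had 11.94 at a point 156 bp inside its 3′ end, with no ADA-treated peak within 44415 bp. At Gamt, which uses the donor to make creatine, the ADA-treated list held 15.79 and the member had 11.25. Mat2b, a regulatory subunit of the enzyme that makes the donor, had 10.02 and no ADA-treated peak near an end. At Cdkn2a, which encodes cell cycle inhibitors, the ADA-treated list held 13.18 and the member had 12.46, with 68 bp between them. Ccnd1, cyclin D, had 10.67 with an ADA-treated peak 26 bp away. Among Polycomb genes only the demethylase Kdm6b of 31 had a member, where the ADA-treated list held 11.47 and the member had 11.60. This member lay 1303 bp outside Kdm6b and closer to other genes. The inflammasome list had 1 of 30 (Il1a, 10), the fibrosis list 2 of 30 (among them the matrix protease Mmp9, 10.13) and housekeeping genes 1 of 18 (Actb, 11.47).

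Gene families gave further counts. Of 50 genes for proteasome subunits and assembly factors, taken by their gene symbols, 8 (16%, 7.17 to 29.1) had a member, with a median pileup of 10.93. Of these 8, 6 had no ADA-treated peak near an end, where 46% of the family had one. The count leaves out Pomp, the proteasome maturation protein, which had a member of 13.08 and an ADA-treated peak of 13.92 near an end. Psmb7, a catalytic subunit, had 11.23 over an end, and Psmd1 had 10.47 over its start. Solute carriers had 28 of 362 (7.73%, 5.2 to 11), with a median of 10.58, led by Slc9a8, Slc46a3, Slc15a4 (12.60) and Slc22a13 (12.49). Ribosomal proteins had 7 of 85 (8.24%, 3.38 to 16.2), with Rpl11 at 11.84 over its start. Forkhead factors had 4 of 43, of which Foxi3, Foxd4 and Foxs1 had no ADA-treated peak, although 86% of the family had one. All 4 potassium channel genes with a member, of 92, had no ADA-treated peak, led by Kcnh1 at 12.16, where 56.5% of the family had one. Over all 991 genes with a member, 46.8% had none. A member excludes an ADA-treated peak at its own place, so the shares of whole families are not a like comparison, and these counts are small. Zinc finger Zfp genes had 14 of 388 (3.61%), and olfactory receptors 2 of 1104 (0.181%, 0.0219 to 0.653), while none of 354 vomeronasal receptors had one, which allows up to 1.04%. In all, 39 lists and families were counted against the 4.8% of all genes, and the interval excluded that share for 6 of them, with no allowance for their number. Above it stood the developmental regulators, the distal nephron list, the solute carriers and the proteasome family, and below it both receptor families of smell and pheromones. Those receptor families had few peaks of any kind, with an ADA-treated peak at 0.181% of olfactory and 0.282% of vomeronasal receptors, against 49% of all genes. Solute carriers had more, with an ADA-treated peak at 56.6% and any untreated peak at 30.1%, against 24.1% of all genes. The distal nephron list had 44.4% and 22.2%, and the proteasome family 46% and 24%, in the same order.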

How the data were processed

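ChIP-seq for H3K27me3 on C57BL/6 kidney gave 1 ADA-treated and 1 untreated library, and an input that entered only through peak calling. The labels list 1 input, whereas the file headers name one for each library. Per the file headers, the authors called broad peaks with MACS 2.1.2 in each library against its own input, at a caller p threshold of 0.001, with duplicates kept and the local background switched off. CASAVA 1.4 and mm9 appear in the submitters' processing notes, while the aligner was not given in the sources used here. Gene ends in the table for GRCm38.p6 matched the peaks, so coordinates are given as GRCm38, 1-based, as deposited.

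The deposited signal is the fragment pileup averaged over the peak, with the larger of ChIP and input scaled to the smaller, per the file headers. The deposited fold divides the pileup by the background after 1 is added to each. The deposited −log10 p and −log10 q are the caller's, although the headers say that q was not calculated.

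Overlap (at least 1 bp), distances and gene counts were computed with pandas 2.3.3, scipy 1.17.1 and numpy 2.4.6 under Python 3.11.15, tested on simulated data and checked against bedtools 2.31.1, which gave the same 4772 shared untreated peaks over all chromosomes. Figures were drawn with matplotlib 3.10.9. The gene table carries no strand, so starts and 3′ ends were assigned from the RefSeq promoter table, which covered 16456 of 20661 genes, and members near a gene without an entry were left out of the shares by end. Exons, introns and UTRs were not distinguished.

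The members, gene lists, families and motifs were chosen with earlier results of these data known. Peaks were ranked by −log10 p, then fold. Named were the genes of the first 20 members, of the first 10 covering a start, of the 5 longest, of the 3 on either side of each limit and of the first 5 with no ADA-treated peak within 50 kb, genes with 2 or more members, and up to 8 genes a list and 4 a family. Alx1 and Atoh1 (for their distance from an ADA-treated peak) and Psmd1 lie outside that rule, as do the microRNA genes, and were chosen after their values were seen. Gm and Rik genes enter the counts without being named, and a few further genes fulfilling it are not reported here. There were 12 alternatives, in the overlap, the gene window, the peak threshold, the chromosomes and the merging of peaks, and 5 more for the share near 3′ ends, chosen after seeing the data.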

Additional observations from a re-analysis of the deposited data

How the results depend on the processing

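Counting an ADA-treated peak within 5 kb as shared left 479 members at 538 genes, with 27.9% covering a start. A gene window of 0 bp left 245 members at 265 genes, with 76.1% covering a start and a median fold of 2.76, a window of 1 kb gave 29.8% covering a start, and a window of 5 kb gave 1306 members at 1661 genes, with 14%. A q of at most 5% left 22 members at 28 genes with a median fold of 3.37. A pileup of at least 12 left 60 members at 73 genes, with 28.9% covering a start and a median fold of 3.19. Restricting ADA-treated peaks to a pileup of at least 12 gave 1656 members at 1919 genes, with 30.7% covering a start and a median fold of 2.74. Taking as many ADA-treated as untreated peaks gave 1569 members at 1819 genes, 30.3% and 2.74. These settings change the counts by their own construction.

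The member count of 843 became 692 with ADA-treated peaks within 1 kb counted as shared, 1113 with overlap of at least 50% of the shorter peak and 618 with a 1 kb window, and was 843 with all chromosomes. Merging untreated peaks within 1 kb could change nothing, since none lay that close. The share near a 3′ end alone was 31.1% at a pileup of at least 12, a setting chosen after seeing the data, and ran from 33.7% to 41% under the other 4 added settings. No paired analysis was possible because each group had 1 library and no result came from a test. Most members lay within a small step of the lowest listed pileup of 10, so 1 library cannot tell a call that is absent from one just missed.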
